A study of Mus musculus with 96 samples.

Results

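Ferritin and iron handling genes were described here as 10 named rows, all of which were present among the 40202 rows of the count files: Fth1, Ftl1, Ncoa4, Tfrc, Slc11a2, Hmox1, Blvrb, Slc40a1, Aco1 and Ireb2. They were chosen by name after their summed levels in untreated and RO-3306-treated cells had been compared, so every difference between the groups below is a description, with no test. Cells store iron inside ferritin, a hollow shell of heavy chains (Fth1), which oxidise iron, and light chains (Ftl1), which help to lay it down as mineral. Iron regulatory proteins bind a hairpin in certain mRNAs when iron is scarce, which blocks translation of ferritin mRNA and stabilises the mRNA of the transferrin receptor Tfrc. Transcription of both ferritin chains and of haem oxygenase is also known to respond to oxidative stress.

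The libraries came from single cells of C10, a mouse lung line labelled as alveolar type II epithelial, and no genetic change is named. The 48 control libraries were from untreated cells, and the other 48 from cells given RO-3306, a compound sold as a CDK1 inhibitor, at 10 nM for 36 h. The series names nanoSPLITS, which divides the lysate of 1 cell so that RNA and protein can both be read, and only RNA is described here. Libraries under 50000 counts or under 1000 detected genes were set aside, which left 29 control and 37 RO-3306 cells.

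No culture, dish or passage is named, so each group counts as 1 sample, cells are not replicates, and no difference has a replicate check. Totals of kept cells ranged from 59979 to 6457210 counts in control and from 295005 to 5321880 in RO-3306. Levels are CPM, counts scaled to a total of 1000000 per cell or per group, and intervals are at the 95% level and cover counting error only. The intervals treat every read as independent. No molecular identifiers were used, so they do not allow for reads copied from the same molecule or for differences between cells. The kept cell with the fewest counts in control was D10, with 1000 CPM of Fth1 and 1197 CPM of Ftl1. The left-out control library with the most counts, B3, had 47767 counts over 503 genes and none from either chain. In RO-3306 the corresponding kept cell was B3, with 4454 CPM of Fth1 and 7976 CPM of Ftl1 and a mitochondrial share of 56.0%. The left-out library D5 had 773537 counts but 943 genes, a mitochondrial share of 87.3%, and 781 and 558 CPM of the 2 chains. The median mitochondrial share of kept cells was 3.40% in control and 4.42% in RO-3306. Of 7 markers of the labelled alveolar type II cell, 2 had counts in control and 3 in RO-3306, with a summed level of 9.61 against 5.40 CPM that came mostly from Abca3. Sftpa1, Sftpc, Sftpd and Slc34a2 were at 0 in both groups. Of 5 epithelial markers, 3 had counts in control and 4 in RO-3306, with a summed level of 1.78 against 0.978 CPM. The 7 mesenchymal markers all had counts and totalled 5575 CPM for control against 2502 CPM for RO-3306.

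The hairpin bound by iron regulatory proteins is shown first, because it is the feature that joins storage, uptake and export. Mouse mRNAs of GENCODE M21 (build GRCm38) were searched on their own strand for a C, any 5 bases, the loop CAGTGN and 5 bases able to pair with the first 5, G with T allowed. Of the 10 genes, 4 held a match, all outside the coding sequence. Over 1 mRNA for each of 21877 genes, 0.571% held a match in an untranslated region. Each line gives 30 bases, 5′ to 3′, as DNA letters, with the 6 loop bases in capitals.
Fth1, 5′ untranslated region: tttcctgcttcaaCAGTGCttgaacggaac
Ftl1, 5′ untranslated region: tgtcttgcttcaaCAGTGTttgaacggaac
Slc40a1, 5′ untranslated region: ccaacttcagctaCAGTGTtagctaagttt
Tfrc, 3′ untranslated region, the first match: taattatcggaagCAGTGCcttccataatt
Tfrc, 3′ untranslated region, the second match: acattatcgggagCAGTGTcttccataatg
Tfrc, 3′ untranslated region, the third match: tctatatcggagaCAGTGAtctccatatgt
Tfrc, 3′ untranslated region, the fourth match: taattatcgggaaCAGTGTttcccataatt
The Fth1 window is chr19:9982731-9982760 (plus strand, exon 1), and that of Ftl1 is chr7:45459779-45459808 (minus strand, exon 1). The ferritin windows had the same base at 27 of 30 positions. The Slc40a1 window is chr1:45925465-45925494 (minus strand, exon 1), and the Tfrc windows lie in exon 19 between chr16:32631218-32631247 and chr16:32631709-32631738 (plus strand). Slc11a2, Ncoa4, Hmox1, Blvrb, Aco1 and Ireb2 held no match to this pattern in the RefSeq-linked transcripts searched, which says only that these letters and pairings were not there.

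A gene was called higher or lower where its log2 ratio of RO-3306 over control, on the log2(CPM + 1) scale over summed cells, was at least 1 in size and had the same sign in all 4 lettered sets of the library titles. The meaning of the letters A to D is not given, and they are not replicates. Only genes whose 2 group levels averaged 5 CPM or more entered, and 9 of the 10 did. Of these 9, Fth1, Ftl1, Hmox1 and Blvrb were called higher, against 7.23% of the 9374 genes of that level (678). Ireb2 alone was called lower, against 6.43% (603). The genes were picked on this contrast, so nothing is read from these shares. The median log2 ratio was 0.74 for the 9 genes, with 6 above 0 and 3 below, and -0.22 for all 9374. Other scaling factors raise the median ratio by 0.21 (TMM) or 0.23 (DESeq2), and turn the split of all calls from 678 higher and 603 lower to 880 and 450 (TMM) or 907 and 438 (DESeq2). Ratios smaller than that shift have no settled sign.

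**Figure D1:**
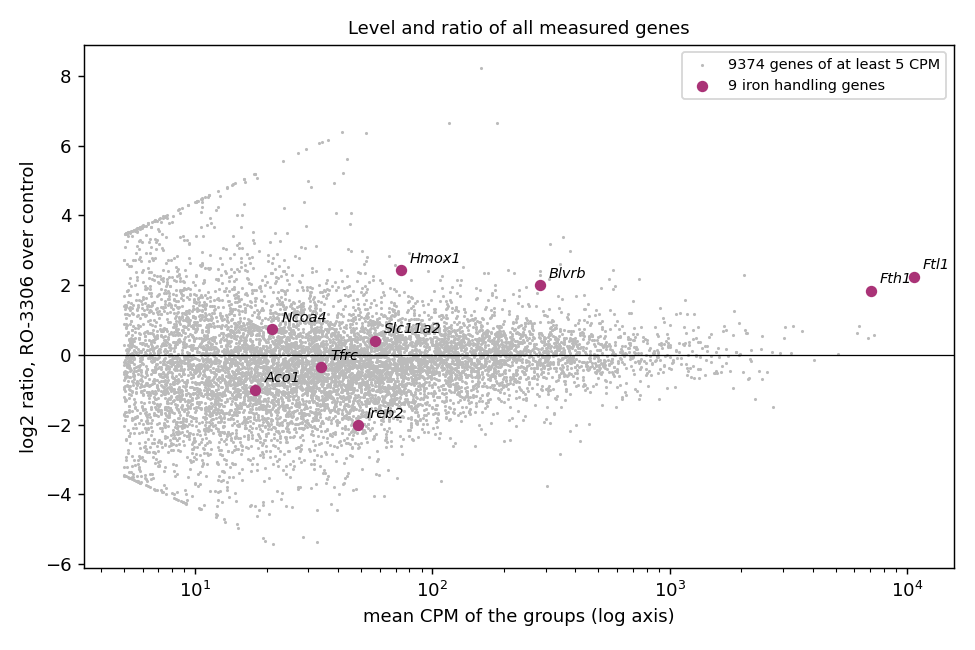
Mean CPM of the 2 groups (log axis) against the log2 ratio of RO-3306 over control, with 1 grey point for each of 9374 genes and the 9 iron handling genes of at least 5 CPM in purple. Ftl1 and Fth1 sit at the right edge, near log2 ratios of 2.24 and 1.84, while Ncoa4, Slc11a2, Tfrc and Aco1 lie within the grey cloud between 0.74 and -0.995.

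Both ferritin chains were higher in RO-3306 cells. Fth1 (chromosome 19, 9957964 to 9962475, plus strand, gene span on GRCm39) had a lowest, median and highest cell of 1000, 3154 and 7244 CPM in control. In RO-3306 these were 757, 11086 and 20807 CPM. Of 37 RO-3306 cells, 28 were above every control cell, so the groups overlapped in the remaining cells, and cell A11 was below every control cell. Summed over cells, Fth1 was 3065 CPM in control (3052 to 3079) and 11002 CPM in RO-3306 (10981 to 11024), a 3.59-fold ratio (3.57 to 3.61).

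Ftl1 (chromosome 7, 45107368 to 45109310, minus strand) differed more. Its lowest, median and highest control cells had 1197, 3937 and 8614 CPM, and its RO-3306 cells 2153, 18554 and 36096 CPM. All but 2 of the RO-3306 cells, 35 of 37, were above every control cell. The summed level was 3730 CPM (3716 to 3745) against 17674 CPM (17647 to 17701), a 4.74-fold ratio (4.72 to 4.76). By lettered set the log2 ratio was 1.95, 2.39, 2.37 and 2.81 for Ftl1 in sets A to D and 1.54, 2.18, 1.81 and 2.09 for Fth1.

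The mRNAs of both chains together made up 0.680% of the summed control counts and 2.87% of the summed RO-3306 counts. In single cells this share had a median of 0.690% in control (0.220% to 1.26%) and 2.96% in RO-3306 (0.291% to 5.48%). Of the RO-3306 cells, 35 were above the highest control cell. The 2 that were not were A11, at 0.291%, and B3, at 1.24%, and their mitochondrial shares were 18.1% and 56.0%. Whether that mitochondrial share bears on their ferritin level was not tested. Per kilobase of mRNA, Ftl1 moved from rank 3 in control to rank 1 in RO-3306 among 8838 genes with a known length, and Fth1 from rank 5 to rank 2. The 8838 are 94.3% of the genes of at least 5 CPM, and genes whose names matched no length were not ranked. Counts over whole gene spans, introns included, were divided by mRNA length. Among the 116 genes averaging 1000 CPM or more, whose median log2 ratio was 0.08, Ftl1 had the second highest log2 ratio and Fth1 the third.

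**Figure D2:**
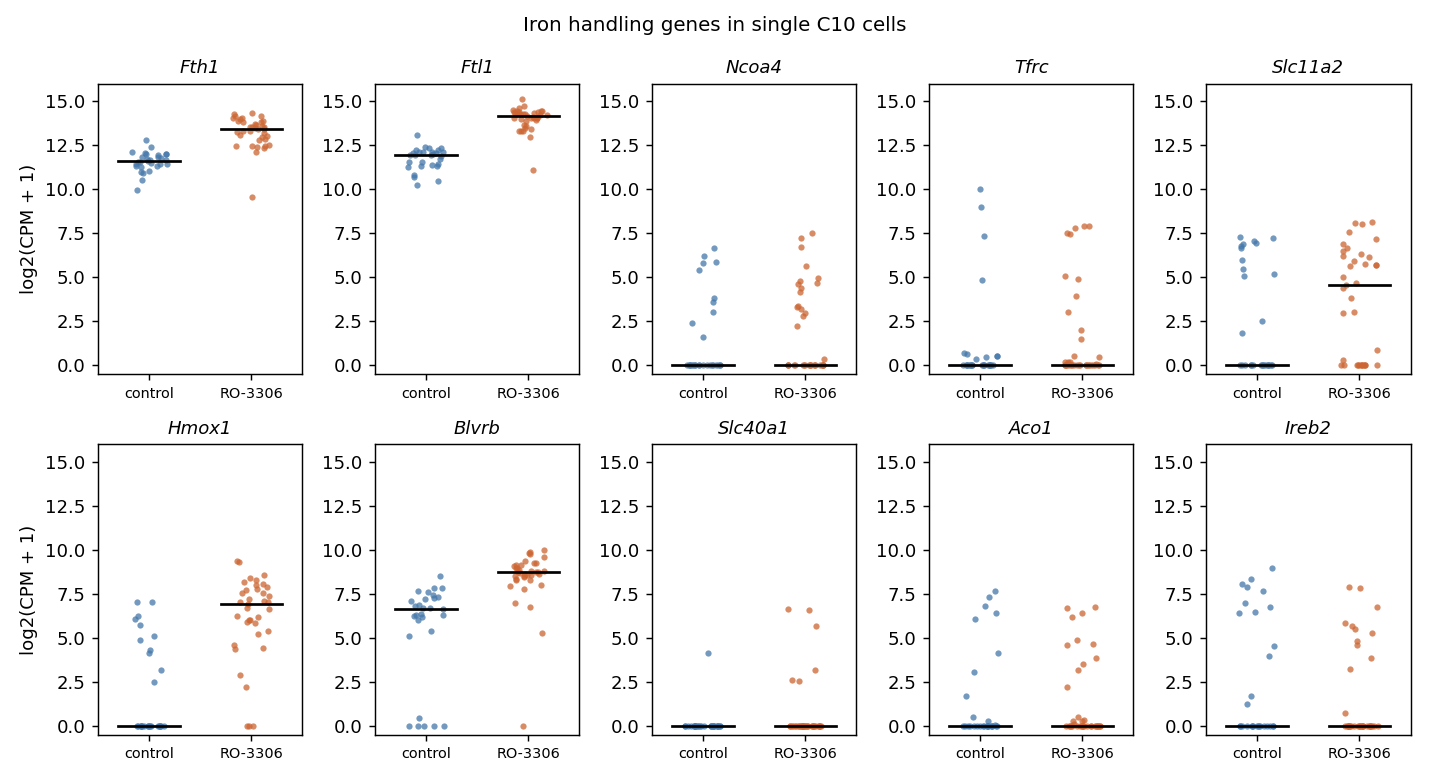
CPM of each gene on the log2(CPM + 1) scale, with 1 point per kept cell (29 control, 37 RO-3306) and a bar at the median. The ferritin chains had counts in every cell and Blvrb in most, whereas Tfrc, Ncoa4, Slc40a1, Aco1 and Ireb2 were at 0 in more than 50% of the cells of both groups.

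The balance of the chains was also different. Per unit of mRNA length, summed Ftl1 was 1.17 times Fth1 in control and 1.54 times Fth1 in RO-3306. In sets A to D this ratio was 1.17, 1.24, 1.06 and 0.986 in control and 1.56, 1.44, 1.56 and 1.63 in RO-3306, so the sets of the 2 groups did not overlap. Single cells did overlap, with ratios from 0.346 to 2.69 (median 1.14) in control and from 0.912 to 3.76 (median 1.60) in RO-3306. Ftl1 exceeded Fth1 in 18 of 29 control cells and in 35 of 37 RO-3306 cells. Across cells of 1 group thinned to 639000 reads, the levels of the chains had a Spearman correlation of 0.50 over 25 control cells and 0.62 over 34 RO-3306 cells. The 2 values of a cell share its library and its total. Both also followed the mitochondrial share of the cell, with correlations of 0.66 (Ftl1) and 0.57 (Fth1) in control and 0.42 and 0.37 in RO-3306, and the part of this in the ferritin levels was not tested.

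Reads of Ftl1 could not all be placed at 1 site. The authors split a read with several sites into fractions, and Ftl1 counts were fractional in 28 of 29 control and 37 of 37 RO-3306 cells, against 17 and 27 cells for Fth1. In GENCODE M21, 17 other transcripts matched the Ftl1 mRNA over at least 300 nt at 85% identity or more, and 5 of them over at least 500 nt at 95% or more. Fth1 had 2 matches at 85% and none at 95%. Only Ftl1-ps2, 97.8% identical over 549 nt, had a row of its own, with 60.1 counts in control and 426 in RO-3306. Adding it left the light-chain log2 ratio at 2.24. The 7 rows of Fthl17 genes and pseudogenes were at 0 in every kept cell. The files list 249 of the 10622 pseudogenes in the RefSeq table (2.34%), so a fraction of a read given to an unlisted copy outside any listed gene span is in no row. The ratios of Ftl1 to Fth1, the counts of cells based on them and the ranks per kilobase were not corrected for this.

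The pair of rows whose levels followed Ftl1 most closely were genes whose GENCODE M21 spans overlap such copies. Of 3700 genes of at least 50 CPM, Grik3, a kainate receptor subunit gene, had the highest mean of the within-group Spearman correlations with Ftl1, at 0.86 in control and 0.85 in RO-3306 (25 and 34 thinned cells). Tulp4 was next, at 0.56 and 0.75, and the ribosomal protein gene Rpl35 after it, at 0.83 and 0.37. In GENCODE M21 (GRCm38), the span of Grik3 overlaps Ftl2-ps, 98.7% identical to Ftl1 over 552 nt. That of Tulp4 overlaps Gm15590, 99.1% identical over 552 nt. Strand was not considered, and whether the copies lie within the RefSeq spans counted on GRCm39 was not checked. Both rows had fractional counts in all 66 kept cells.

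Grik3 was 70.9 CPM in control, 369 in RO-3306, and was called higher, with a log2 ratio of 2.36. In the median cell its count was 1.85% of the Ftl1 count in control (quartiles 1.66% and 1.94%) and 2.04% in RO-3306 (1.87% and 2.14%). Tulp4 went from 123 to 298 CPM (log2 ratio 1.27), and its count was 2.498% of Ftl1 in the median control cell (1.79% and 3.91%) and 1.56% in the median RO-3306 cell (1.39% and 1.85%). The span of F630206G17Rik overlaps Gm12164 (96.0% identical over 554 nt). Its row went from 7.60 to 36.1 CPM, or 0.203% and 0.198% of Ftl1 in the median cells. Its counts were fractional in all 65 cells that had any. The spans of Cars, Fbxo8, Hlcs and Pcdh15 overlap less alike copies, at 87.1% to 88.8% identity. Cars, Fbxo8 and Hlcs had lower summed levels in RO-3306. Their correlations with Ftl1 were -0.19, -0.23 and -0.52 in control and -0.23, 0.02 and -0.02 in RO-3306. Pcdh15 was called higher, with correlations of 0.21 and 0.29. How much of any of these rows comes from ferritin reads was not tested.

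**Figure D3:**
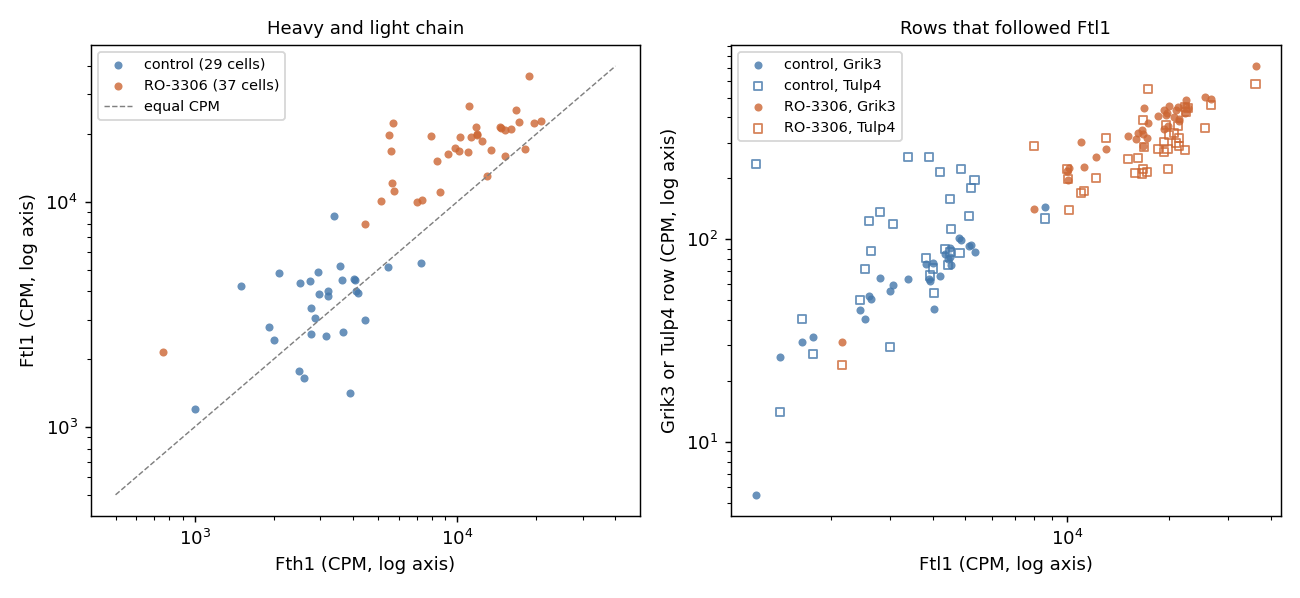
Left, CPM of Fth1 against CPM of Ftl1 in each kept cell (log axes), where the dashed line marks equal CPM, not corrected for length. Right, CPM of the Grik3 row (filled circles) and the Tulp4 row (open squares) against CPM of Ftl1 in the same cells, in which Grik3 kept close to 2% of Ftl1 in both groups and Tulp4 was more scattered in control.

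For Fth1 no gene followed so closely. Its nearest were the mitochondrial carrier gene Slc25a39, with correlations of 0.58 in control and 0.48 in RO-3306, Gm15286 (0.57 and 0.41) and Rpl35 (0.59 and 0.39). They are the highest of 3700 genes over 25 and 34 cells, and picking the highest raises such values. How much of them picking alone gives was not tested. The level of Slc25a39 was 349 CPM in control against 664 in RO-3306. Gm15286 was 101 against 129 CPM and Rpl35 1854 against 1947 CPM.

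Ncoa4 encodes the receptor that carries ferritin to the lysosome for breakdown. Its gene spans chromosome 14, 31881836 to 31901812. It was seen in few cells, 10 of 29 in control (highest 99.0 CPM) and 17 of 37 in RO-3306 (highest 182 CPM), with a median of 0 in both. The summed level was 15.6 CPM (14.6 to 16.5) against 26.8 CPM (25.7 to 27.8), a log2 ratio of 0.74. Set D went the other way, at -1.65, against 2.80, 0.89 and 3.25 in sets A, B and C, and Ncoa4 was not called. Cell B5 held 49.1% of the control counts and cell A5 36.6% of the RO-3306 counts. Without control B5 the log2 ratio was 1.53, and without RO-3306 A5 it was 0.19.

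For uptake, Tfrc (chromosome 16, 32427714 to 32451612) encodes the transferrin receptor. It had counts in 10 of 29 control and 17 of 37 RO-3306 cells, the highest control cell at 1032 CPM and the highest RO-3306 cell at 244 CPM. Summed, it was 38.3 CPM (36.8 to 39.8) and 29.6 CPM (28.5 to 30.7), a log2 ratio of -0.36. Control cell D7 alone held 56.7% of the control counts, and without it the log2 ratio turned to 0.77. The sets ranged from -4.93 in D to 3.97 in C, so no direction can be given for Tfrc.

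Slc11a2 (chromosome 15, 100285779 to 100322090) encodes DMT1, which moves ferrous iron across membranes. It had counts in 13 of 29 control cells, with a median of 0 and a highest cell of 157 CPM. In RO-3306 it had counts in 25 of 37 cells, with a median of 22.9 and a highest cell of 276 CPM. Thinned to equal depth, the shares of cells were 12 of 25 and 23 of 34. The summed level was 49.1 CPM (47.4 to 50.8) and 65.5 CPM (63.9 to 67.2). The log2 ratio of 0.41 was above 0 in sets A and C and below 0 in B and D, and Slc11a2 was not called.

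Haem breakdown releases iron. Hmox1 (chromosome 8, 75820246 to 75827221) encodes haem oxygenase 1, which opens the haem ring, and it had the largest log2 ratio of the 9 genes. It had counts in 11 of 29 control cells, with a median of 0 and a highest cell of 133 CPM. In RO-3306 it had counts in 34 of 37 cells, with a median of 119 and a highest cell of 658 CPM, and 16 of these cells were above every control cell. At equal depth 9 of 25 and 33 of 34 cells had a count. Summed, Hmox1 was 22.4 CPM (21.3 to 23.6) against 125 CPM (123 to 127), a 5.58-fold ratio (5.29 to 5.90). The log2 ratio was 2.53, 1.45, 7.04 and 4.13 in sets A to D. Control set C had no Hmox1 count, so its value depends on the pseudocount.

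Blvrb (chromosome 7, 27147403 to 27165406) encodes biliverdin reductase B, a reductase of flavins and of a biliverdin isomer. Its control cells had a median of 101 CPM and a highest of 366 CPM, with 5 of 29 at 0. Its RO-3306 cells had a median of 425 CPM and a highest of 1014 CPM, with 1 of 37 at 0. In RO-3306, 26 cells were above every control cell. The summed level was 112 CPM (110 to 115) and 453 CPM (449 to 457), a 4.03-fold ratio (3.93 to 4.13), and the log2 ratio stayed between 1.64 and 2.09 in the 4 sets.

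Blvrb and Hmox1 were higher in the same group as ferritin, but their correlations with it from cell to cell were low or negative. Spearman correlations with Hmox1 were 0.05 in control and 0.26 in RO-3306 for Ftl1, and 0.14 and 0.30 for Fth1. With Blvrb they were -0.36 and -0.04 for Ftl1, and -0.51 and -0.25 for Fth1. Those of Hmox1 with Blvrb were -0.03 and -0.01. These are over the same 25 and 34 cells, and Hmox1 had a count in only 9 of the 25 control cells. The gene most like Blvrb was Ctsl, the gene of the lysosomal protease cathepsin L, with correlations of 0.56 and 0.52 and levels of 674 and 1544 CPM. It was followed by Atp2a2 and Slc35a1, with mean correlations of 0.52 and 0.50. Both of these were lower in RO-3306, Atp2a2 at 34.1 CPM against 138 in control and Slc35a1 at 68.8 against 93.7. For Hmox1 the nearest were Tor1aip2, Nudcd1 and Pgls, with mean correlations of 0.50, 0.45 and 0.43. That of Tor1aip2 joins 0.79 in control and 0.21 in RO-3306. Tor1aip2 went from 117 to 172 CPM, Nudcd1 from 110 to 18.8 and Pgls from 83.2 to 78.3. The genes named as nearest to Blvrb and Hmox1 were the highest of 3700, and picking the highest raises such correlations. How much of them picking alone gives was not tested, so no link between these genes is read from them.

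Slc40a1 (chromosome 1, 45947230 to 45965690) encodes ferroportin, the iron exporter, and was the gene below 5 CPM. It had 43 counts in control, all in cell B1, and 614.5 counts in 6 of 37 RO-3306 cells, the highest at 99.8 CPM. The levels were 0.651 CPM (0.471 to 0.877) and 6.62 CPM (6.10 to 7.16). The ratio of 10.2 (7.45 to 14.2) rests on those few cells, since D9 held 64.7% of the RO-3306 counts and the log2 ratio of 2.21 was 1.06 without it.

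Both genes of iron regulatory proteins had lower summed levels in RO-3306. Ireb2 (chromosome 9, 54769942 to 54819818) encodes IRP2, which is degraded when iron is plentiful. It had counts in 13 of 29 control cells, up to 512 CPM, and in 12 of 37 RO-3306 cells, up to 236 CPM. The summed level was 78.4 CPM (76.2 to 80.5) and 18.7 CPM (17.8 to 19.6), a 4.20-fold lower level in RO-3306 (3.97 to 4.43). The log2 ratio was largest in size in set B, at -4.10, against -0.01, -0.16 and -1.29 in A, C and D. The values of sets A and C are smaller than the shift between scalings, and the call was lost under 6 of 13 other settings and when any of 15 single cells of the 66 was left out.

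Aco1 (chromosome 4, 40143265 to 40199009) encodes IRP1, which is also the cytosolic aconitase. It had counts in 11 of 29 control cells, up to 205 CPM, and in 16 of 37 RO-3306 cells, up to 107 CPM. The summed level was 24.2 CPM (23.03 to 25.4) against 11.6 CPM (10.96 to 12.4), a log2 ratio of -0.995. Set A stood at 3.75 and sets B, C and D at -0.90, -3.93 and -4.26, so Aco1 was not called.

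**Figure D4:**
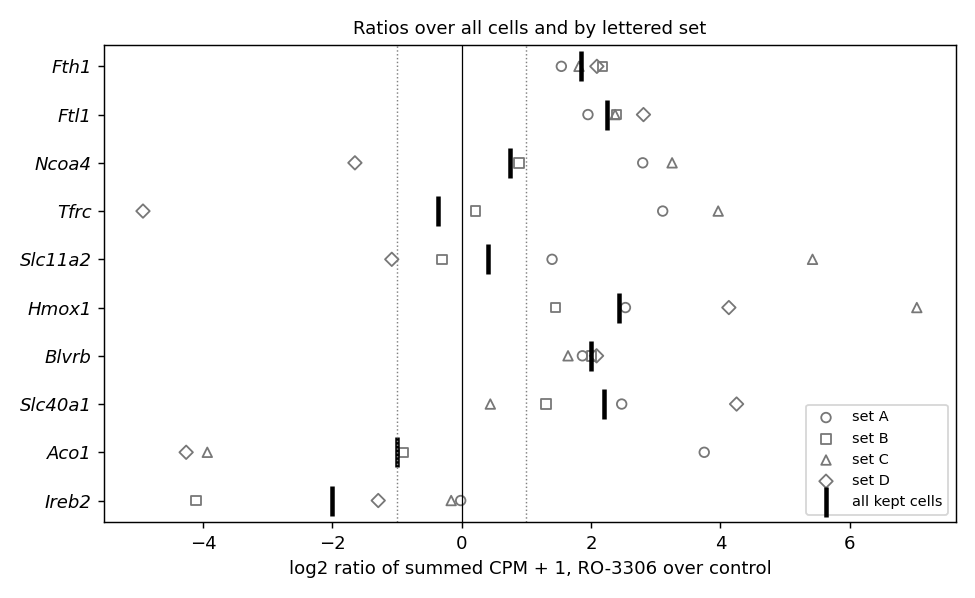
Log2 ratio of RO-3306 over control for the 10 genes, over all kept cells (black bar) and in each lettered set (open symbols), with dotted lines at a log2 ratio of 1 in size. The sets of Fth1, Ftl1 and Blvrb lie close together above 1, those of Hmox1 spread from 1.45 to 7.04, and those of Tfrc, Ncoa4, Slc11a2 and Aco1 fall on both sides of 0.

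Of 82 other genes in 8 lists, 60 reached 5 CPM, and 3 of these 60 were called higher and 4 lower, near the background of 7.23% and 6.43% of all genes. Their median log2 ratio was -0.13, against -0.22 for all genes. Among 14 uptake genes, 7 were measured at that level and 2 were called higher. Lcn2, a secreted protein that binds iron carriers of bacteria, went from 89.2 to 476 CPM, and Mcoln1, a lysosomal cation channel, from 12.6 to 53.7 CPM. Trf, the gene of transferrin itself, was 195 and 116 CPM and was not called.

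In iron delivery and ferritin turnover, Pcbp1 and Pcbp2, chaperones that load iron into ferritin, were called lower, at 325 against 155 CPM and 248 against 95.9 CPM. They were 2 of the 6 measured genes of their list, and the other 4 were not called. The Pcbp1 call was lost under both other scalings, by the mean of per-cell CPM and at equal depth. Fbxl5, which marks IRP2 for degradation, was 89.7 and 68.5 CPM, within the uncalled range.

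In the haem lists, Slc48a1, a haem transporter of the lysosome, went from 358 to 802 CPM and was the call among 7 measured genes of haem breakdown and transport. Without set B it was not called. The partner genes Hmox2 (49.3 and 74.4 CPM) and Blvra (88.2 and 151 CPM) were not called, though Blvra was called higher without set B. Of 10 measured genes of haem synthesis, Cpox, which acts late in the pathway, was called lower, at 95.6 and 34.6 CPM. Alas1, the first enzyme, was 63.9 and 34.6 CPM and was not called.

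Mitochondrial iron and iron-sulfur genes had 11 ratios above 0 and 10 below among 21 measured. Of the 4 other genes with a known hairpin, 2 were measured and neither was called. Cp was the measured gene of the export list, at 78.1 and 13.7 CPM, and was not called.

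Regulators of ferritin and haem oxygenase transcription gave no call among 6. Nfe2l2, the gene of NRF2, which activates ferritin and Hmox1 through the antioxidant response element, was 102 and 91.0 CPM. Mafg, a partner of NRF2, was 102 and 66.7 CPM. The antioxidant response element TGACNNNGC was looked for on both strands of promoter windows from 250 bases before to 50 after each start (RefSeq, GRCm38.p6), which cover 7 of the 10 genes with 12 windows. Of those, 1 window of Ncoa4 held it, against 12.4% of all 32851 windows, and none of the Fth1, Ftl1 or Blvrb windows did. Hmox1, Slc11a2 and Slc40a1 had no window and were not searched. Windows of this length do not cover distant enhancers.

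Other measures moved with the groups. Among 8838 genes with a known mRNA length, those at the short end, 10% of the genes and up to 1200 nt, had a median log2 ratio of 0.25 and those at the long end, 10% and from 6387 nt, one of -0.90. Fth1, Ftl1 and Blvrb are 929, 968 and 1028 nt, and Ireb2 is 5770 nt. Of 592 genes of 800 to 1200 nt, 11.7% were called higher, with a median of 0.24. Of 12 macrophage markers, 6 had counts in each group, summing to 58.5 CPM in control cells (each from 0 to 314) and 64.7 CPM in RO-3306 (0 to 436), mostly from Cd14 and Lyz2. C1qa, Marco, Tyrobp and Aif1 were at 0 in both groups. The 6 erythroid markers were at 0 in control and summed to 0.663 CPM in RO-3306, from 1 cell. The part of mRNA length or of these markers in the ferritin difference was not tested.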

How the data were processed

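The authors deposited expected counts for each of the 96 libraries. Per the file headers, featureCounts 2.0.3 was run on GRCm39 with RefSeq genes. The headers record whole gene spans, introns included, and equal fractions for reads with several sites. STAR and FastQC are named in the submitters' processing notes without versions. Strand and any step on PCR copies are not given in the sources used here, and no molecular identifiers were used.

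Counts were summed over kept cells per group, and CPM, log2 ratios with a pseudocount of 1 CPM, exact Poisson and conditional binomial intervals were computed, with fractional counts rounded for intervals and thinning. Expected counts were not put to edgeR's or DESeq2's tests, since each group is 1 sample. edgeR 4.0.16 and DESeq2 1.42.0 gave scaling factors only. Python 3.11.15, numpy 2.4.6, pandas 2.3.3, scipy 1.17.1 and blastn were used. Lengths, hairpins, ferritin copies and the gene spans that overlap them came from GENCODE M21 and were matched to the rows by symbol. Mitochondrial genes were taken by chromosome, since their names carry no prefix.

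The 10 genes and all lists were chosen with earlier results of these data known. List genes were named where called, otherwise up to 2 per list by level. Trf, Fbxl5, Alas1, Hmox2, Blvra, Cp, F630206G17Rik and the cells named were chosen after their values were seen. The calling step was run on simulated cells, whose genes varied less from cell to cell than genes seen in few cells did here. That run therefore cannot show how the call behaves for such genes, Ireb2 among them. Values of 2 list genes are not reported here, though counts over the lists include them.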

Additional observations from a re-analysis of the deposited data

Results flagged for a closer look

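Libraries left out for low counts or few genes still held reads of some of these genes, at levels above those of the control libraries left out by the same limits. Over the 11 left-out RO-3306 libraries, Fth1 was 5723 CPM (5587 to 5863) and Ftl1 4599 CPM (4476.7 to 4724), with counts in all 11. In the 19 left-out control libraries they were 548 CPM (472 to 633) and 345 CPM (286 to 414). Single libraries held most of these counts. Among these RO-3306 libraries, D4 held 5237.5 of the 6653.5 Fth1 counts, and without it Fth1 was 1448 CPM (1373 to 1525) and Ftl1 2305 CPM (2211 to 2402). Of the 978234 counts of all genes left without D4, library D5 held 773537, so D5 makes up most of the total behind these levels. In D5 Fth1 was 781 CPM and Ftl1 558 CPM. Levels without both D4 and D5 were not computed. In control, C11 held 166 of the 187 Fth1 counts and D6 94.2 of the 118 Ftl1 counts. Without C11, control Fth1 was 66.3 CPM (41.01 to 101), and without D6, control Ftl1 was 76.9 CPM (47.9 to 113). Blvrb was 552 CPM (510 to 597) in those RO-3306 libraries, with 441 of its 642 counts in D4, and 205 CPM (178 to 236) without it. In D5 Blvrb was 247 CPM. It had no count in left-out control libraries, where the upper limit of the exact Poisson interval was 10.8 CPM. Ncoa4 was 79.6 CPM (63.8 to 97.05), all of it in library A4, and it was at 0 without that library. Leaving out these single libraries was chosen after seeing the data.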

How the results depend on the processing

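The 4 genes called higher, Fth1, Ftl1, Hmox1 and Blvrb, kept their calls under all 13 other settings and without any 1 of the 66 cells. Slc40a1 joined them without set C or with no filter on low values, and Ncoa4 without set D, which made the count 5. The count called lower was 1 (Ireb2). It was 0 with TMM factors, with DESeq2 size factors, by the mean of per-cell CPM, with thinned cells, with cells of at least 500000 counts and 2000 genes, and without set B. Without set A it was 2, as Aco1 was also called. Leaving out single cells, a check chosen after seeing the data, gave a count of 0 to 1. The log2 ratio ranged over 12 settings from 1.70 to 2.08 for Fth1, 2.18 to 2.48 for Ftl1, 2.22 to 3.27 for Hmox1 and 1.91 to 2.23 for Blvrb. It ranged from -2.78 to -0.65 for Ireb2 and from -2.57 to -0.11 for Aco1. Tfrc (-1.36 to 0.95) and Ncoa4 (-0.03 to 1.15) changed sign among these 12 settings, Tfrc only without set D and Ncoa4 only without set A. When single cells were left out, Tfrc kept its sign in 64 of 66 runs and Ncoa4 in all 66. The cause was not tested. No paired analysis was possible because the groups have no replicate cultures and no test was made. For genes seen in few cells, 1 cell can move the ratio. Thinning to equal depth changed the cells with an Ncoa4 count from 10 of 29 to 9 of 25 in control and from 17 of 37 to 16 of 34 in RO-3306.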
